A study of Hipposideros armiger with 2 samples.

Results

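The alcohol and aldehyde dehydrogenases described here are 10 genes, ADH4, ADH5 and ADH7 on the alcohol side and ALDH1A1, ALDH1L1, ALDH2, ALDH3A1, ALDH4A1, ALDH6A1 and ALDH8A1 on the aldehyde side. They were taken by name from the deposited tables, in which 39 of 55378 assembled genes carried one of these names, and they are 10 of 12783 distinct gene names in all. The data are RNA sequencing of poly(A)-selected RNA from 2 bats of the species Hipposideros armiger, the great Himalayan leaf-nosed bat, both of wild-type genotype, both from the CW cave and both labelled as liver exposed to heavy metals. The study's design describes adult males netted at night, and 1 of the 2 libraries has its sex and age in its own labels. The libraries form 1 group of 2 replicates. The other cave is not analysed here, so no comparison of exposed with other animals was made, and a difference between replicate 1 and replicate 2 is 1 library against 1 library, with no test and no replicate check.

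Alcohol dehydrogenases are zinc enzymes that oxidise alcohols to aldehydes, and aldehyde dehydrogenases oxidise aldehydes to acids. In liver the pair is best known for clearing ethanol through acetaldehyde to acetate, but most family members have their own substrates: retinal, formaldehyde bound to glutathione, folate-bound formyl groups, and semialdehydes from the breakdown of proline, valine and tryptophan. Several are characteristic of hepatocytes, whereas class III alcohol dehydrogenase is made in most tissues.

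The libraries held 18741210 expected counts in replicate 1 and 18778331 in replicate 2. Hepatocyte markers went against the liver label in replicate 2. The 10 markers summed to 9519 TPM (a level per transcript length, relative to the whole library) in replicate 1 and 255 TPM in replicate 2, and 10 of them reached 10 TPM in replicate 1 against 2, ALB and APOA1, in replicate 2. HNF4A, the transcription factor that defines hepatocytes, was at 16.9 TPM in replicate 1 and 0.71 in replicate 2. The 10 lung epithelium markers, which include surfactant proteins and secretoglobins, summed to 12391 TPM in replicate 1, against 19725 TPM in replicate 2. In both libraries this sum was above that of the hepatocyte markers, so the markers of replicate 1 were not those of liver alone either. Single genes held most of both sums in replicate 1, SCGB3A1 at 8069 TPM and ALB at 7990 TPM. Of the lung markers, 0 were at 0 in either library. The 4 kidney markers were not found among the names. Since only 2 libraries are at hand, a result without replicate 2 is the value of replicate 1 alone, and both values are given throughout.

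The 10 dehydrogenases together were at 527 TPM in replicate 1, against 280.4 TPM in replicate 2, or 404 ± 174 TPM (mean ± SD, n = 2). As a share of all counts they took 0.0653% of replicate 1 (0.0641% to 0.0665%) and 0.0373% of replicate 2 (0.0364% to 0.0381%), with Wilson 95% intervals. These intervals cover counting error only. The 3 alcohol dehydrogenases summed to 150 TPM in replicate 1 and 130.4 in replicate 2. By TPM the gap between the libraries therefore lay mainly in the 7 aldehyde dehydrogenases, at 377 in replicate 1, against 149.99 in replicate 2. By counts both sides were lower in replicate 2. The alcohol side had 3505 in replicate 1 and 2222 in replicate 2, and the aldehyde side 8729 in replicate 1 and 4774 in replicate 2. These sums leave out 3 class I assembled genes without a gene name, at 83.4 TPM in replicate 1 and 4.45 in replicate 2. In replicate 1, 9 of the 10 reached 10 TPM, and in replicate 2, 5 did. All 10 had more than 3 counts in each library, which is the floor used here for detection.

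**Figure D1:**
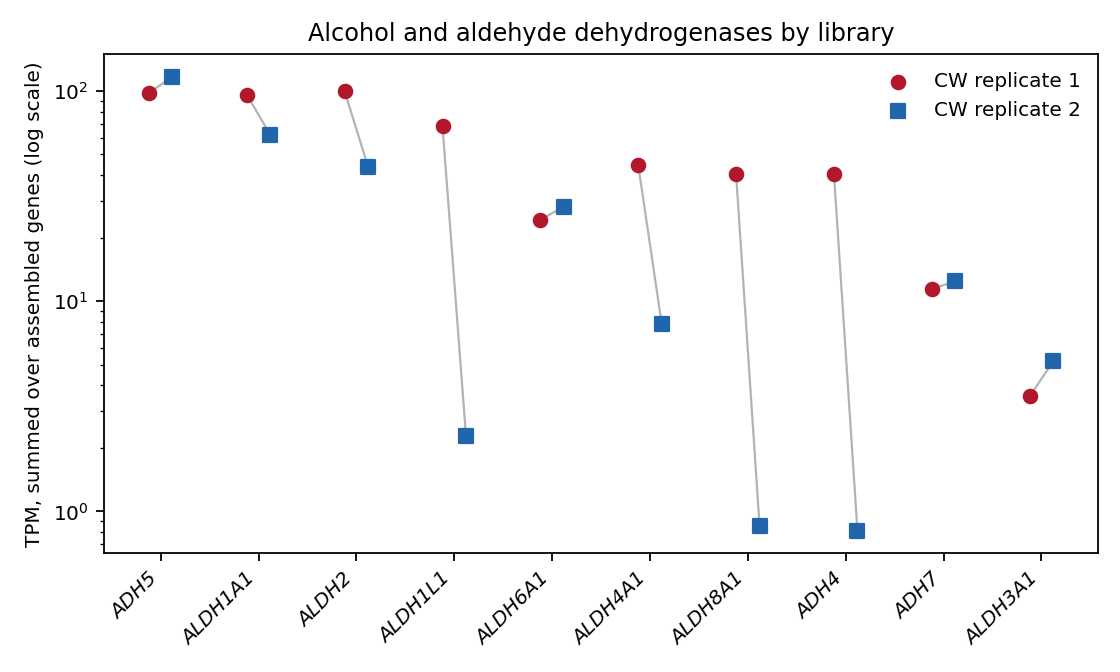
TPM of each dehydrogenase, summed over the assembled genes of its name, on a log axis, with replicate 1 as circles, replicate 2 as squares and a line joining the 2 values of 1 gene. ALDH1L1, ALDH8A1, ADH4 and ALDH4A1 are far lower in replicate 2 than in replicate 1. By TPM, before any scaling between the libraries, ADH5, ALDH6A1, ADH7 and ALDH3A1 are higher in replicate 2.

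In replicate 1 the levels were led by 3 genes close together, ALDH2 at 99.99 TPM, ADH5 at 98.2 TPM and ALDH1A1 at 96.3 TPM. In replicate 2 the same 3 genes led but were spread out, with ADH5 at 117 TPM, ALDH1A1 at 62.1 TPM and ALDH2 at 43.6 TPM. By mean TPM the order ran ADH5 (108 ± 13.4), ALDH1A1 (79.2 ± 24.2), ALDH2 (71.8 ± 39.9), ALDH1L1 (35.2 ± 46.6), ALDH6A1 (26.3 ± 2.7), ALDH4A1 (26.2 ± 26.0), ALDH8A1 (20.5 ± 27.8), ADH4 (20.5 ± 27.8), ADH7 (11.96 ± 0.70) and ALDH3A1 (4.36 ± 1.17), each as SD with n = 2. The values of the 2 libraries did not overlap between ADH5 and ALDH1A1, nor between ADH7 and ALDH3A1. All the other neighbours in that order overlapped, so their order is not separated by the spread between the libraries. Only neighbours were compared, so the top and bottom places are not separated either. ALDH2 was above ADH5 in replicate 1, and ADH4, ALDH8A1 and ALDH1L1 were below ALDH3A1 in replicate 2.

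Counts were compared between the libraries as the log2 ratio of replicate 1 over replicate 2. Each count was scaled by library size and TMM to CPM, a level relative to the size of the library, with 1 CPM added, and the median of all names was removed. The added 1 CPM makes the ratio of a gene that is low in 1 library too small. In TPM the median log2 ratio of all names was -0.33, so TPM and scaled counts can differ in direction. ADH5, ALDH6A1 and ADH7 were higher in replicate 2 by TPM and in replicate 1 by this ratio. By this measure 4 of the 10 genes, ADH4, ALDH1L1, ALDH8A1 and ALDH4A1, were over 2-fold higher in replicate 1. The background over all 11292 gene names tested, those with a mean of at least 1 CPM, was 5.16%. None of the 10 was over 2-fold lower in replicate 1, where the background was 0.0266%, or 3 names. The median log2 ratio of the 10 genes was 0.69, beside a median of 0.00 and an interquartile range of -0.13 to 0.17 over all names. All 10 passed the filter, which uses the mean of both libraries. ALDH8A1, at 0.48 scaled CPM in replicate 2, passed it through replicate 1. In bulk RNA, fewer cells of a type and less RNA per cell cannot be told apart.

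**Figure D2:**
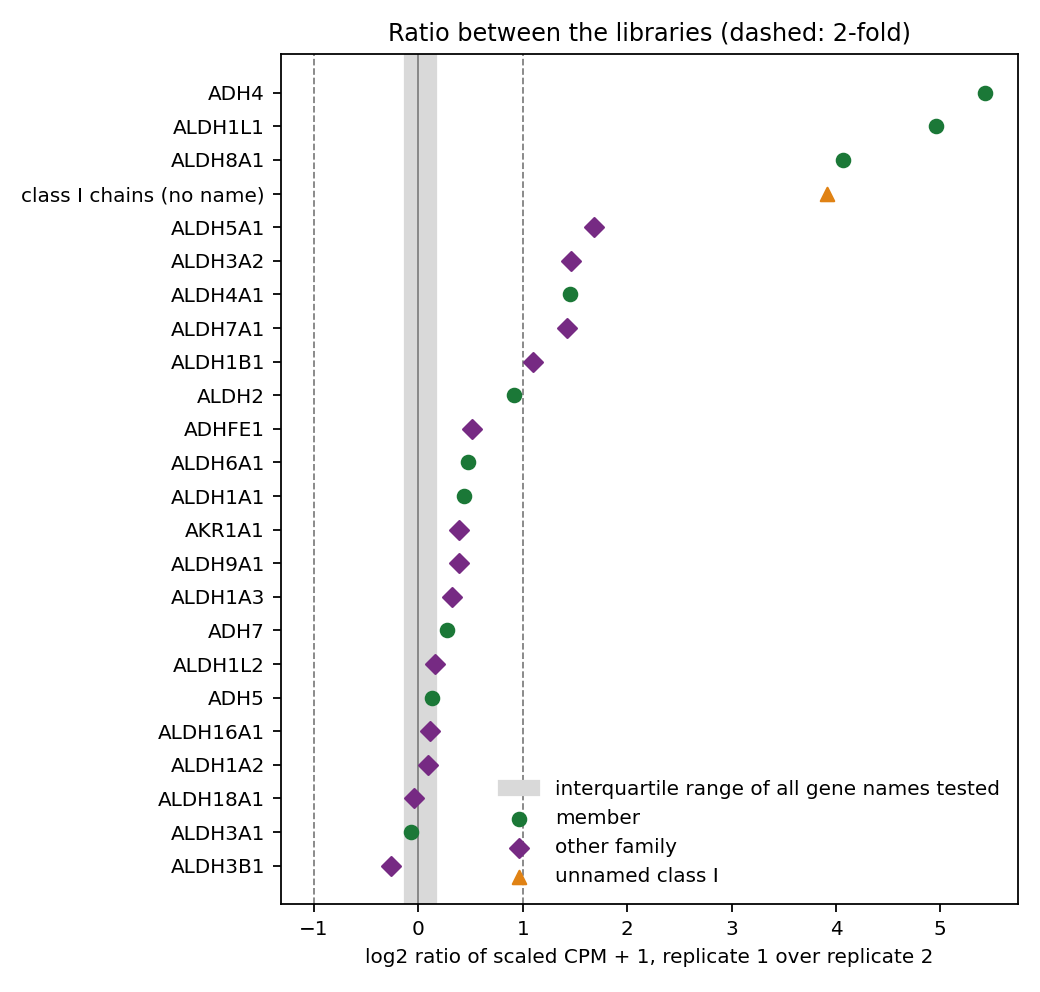
Log2 ratio of scaled CPM + 1, replicate 1 over replicate 2, for the 10 dehydrogenases (circles), the other members of both families that were tested (diamonds) and 3 class I assembled genes without a gene name (triangle), with dashed lines at 2-fold and a grey band for the interquartile range of all gene names tested. ADH4, ALDH1L1 and ALDH8A1 lie at 4.07 or more, the unnamed class I chains at 3.92, and all other points between -0.27 and 1.68.

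Among the alcohol dehydrogenases, ADH4 and ADH5 stood furthest apart. ADH4 is the class II enzyme, which is made mainly in liver and oxidises ethanol and retinol. It was a single assembled gene of 1883 bases with 1477 counts in replicate 1 and 21 in replicate 2, or 40.2 TPM in replicate 1 and 0.81 in replicate 2. Its log2 ratio was 5.43, a 43.0-fold difference with 1 CPM added. Without TMM, ADH4 took 78.8 CPM (74.9 to 82.9, Wilson 95% interval) in replicate 1 and 1.12 CPM (0.731 to 1.71) in replicate 2. By TPM it ranked 1563 of 12783 names in replicate 1 and 12192 in replicate 2.

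ADH5 is the class III enzyme, a glutathione-dependent formaldehyde dehydrogenase that also reduces S-nitrosoglutathione. It was at 98.2 TPM in replicate 1, against 117 TPM in replicate 2, from 1901 counts in replicate 1 and 2079 in replicate 2, with a log2 ratio of 0.13, inside the interquartile range of all names. It ranked 605 among the names in replicate 1 and 507 in replicate 2. ADH5 made up 18.6% of the 10 genes' TPM in replicate 1 and 41.8% in replicate 2. In RefSeq's list of bat genes (assembly ASM189008v1), ADH5 and ADH4 are listed next to each other, followed by ADH6 and ADH1C. The names ADH6 and ADH1C were not found in the deposited tables.

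ADH7 is the class IV enzyme, known from the lining of the stomach and upper digestive tract, where it acts on ethanol and retinol. It had 127 counts in replicate 1 and 122 in replicate 2, at 11.5 TPM in replicate 1 and 12.5 in replicate 2, and a log2 ratio of 0.28. Its 2 assembled genes came from the same Trinity cluster, and ADH7 was the only one of the 10 names that is not a symbol in the RefSeq table. Markers of stratified, corneal and gastric epithelium, a list of 8 of which 5 were found, summed to 15.7 TPM in replicate 1, against 44.8 TPM in replicate 2. Of these, GKN1 of gastric lining was at 2.96 TPM in replicate 1 and 6.57 in replicate 2. KRT13 was at 0 TPM in replicate 1 and 7.96 in replicate 2, from 0 and 14.8 counts. TFF1, KRT4 and MUC5AC were not found. Only 2 of the 5 passed the filter, and both were within 2-fold, KRT5 with a log2 ratio of 0.12 and GKN1 of -0.48. The part of these markers in the ADH7 level was not tested.

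**Figure D3:**
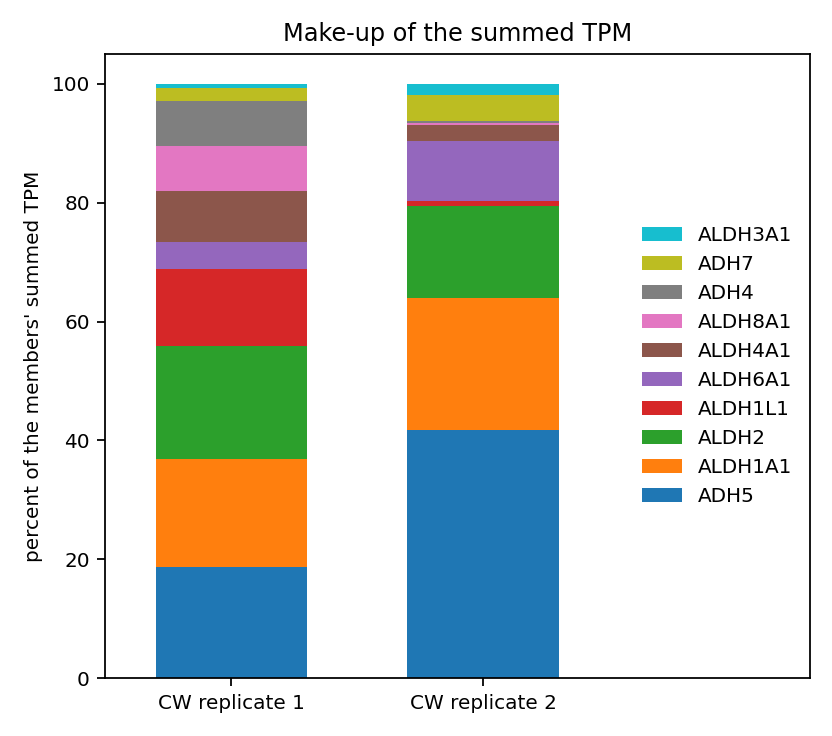
Share of the 10 genes' summed TPM taken by each gene, in percent, as stacked bars for replicate 1 and replicate 2. ADH5 takes 18.6% in replicate 1 and 41.8% in replicate 2, whereas ALDH1L1, ALDH8A1, ADH4 and ALDH4A1 together take 36.6% in replicate 1 and 4.19% in replicate 2.

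Class I alcohol dehydrogenase, the main ethanol-oxidising class of liver, was nearly missing by name. Its names ADH1A and ADH1C were not found. ADH1B had 17.0 counts in replicate 1 and 19.7 in replicate 2, spread over 4 assembled genes of 219 to 395 bases, and ADH1 had 3 counts in each library. The tables do hold 3 assembled genes whose best protein match is a class I chain of horse, the E or S chain, for which the tables give no gene name. These were looked for after the named values were seen. They held 2673 counts in replicate 1 and 193 in replicate 2, or 83.4 TPM in replicate 1 and 4.45 in replicate 2, with a log2 ratio of 3.92. The longest, of 2525 bases, had 2571 counts in replicate 1 and 192 in replicate 2. One of the others, an E chain match with 18 counts in replicate 1 and 0 in replicate 2, came from the same Trinity cluster as 3 of the ADH1B fragments, and the S chain match, with 84 counts in replicate 1 and 1 in replicate 2, from that of the fourth. Reads of such close paralogs can be split among assembled genes, so the division of counts among class I names is uncertain.

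The acetaldehyde and retinal enzymes were within 2-fold between the libraries. ALDH2, the mitochondrial enzyme that oxidises acetaldehyde, was at 99.99 TPM in replicate 1, against 43.6 TPM in replicate 2, from 2036 counts in replicate 1 and 1284 in replicate 2. Its log2 ratio of 0.92 fell just short of 2-fold, and it was 1.51 when TPM was used in place of scaled counts, which makes ALDH2 the fifth gene past 2-fold. ALDH1A1, the cytosolic enzyme that makes retinoic acid from retinal, was at 96.3 TPM in replicate 1 and 62.1 in replicate 2, from 2569 counts in replicate 1 and 2279 in replicate 2, with a log2 ratio of 0.43. ALDH3A1, which oxidises aromatic and lipid-derived aldehydes and is abundant in the cornea, had the lowest mean TPM of the 10. It was at 3.53 TPM in replicate 1, the lowest there, and at 5.18 in replicate 2, where ADH4, ALDH8A1 and ALDH1L1 were lower. Its counts were 125 in replicate 1 and 158 in replicate 2, with a log2 ratio of -0.07.

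The assembled genes under 1 name did not all move together, and ALDH2 shows this most clearly. Its longest assembled gene, of 1957 bases with a best match to cattle, had 1464 counts in replicate 1 and 1154 in replicate 2. A shorter one of 672 bases with a best match to horse had 508 counts in replicate 1 and 6 in replicate 2, or 59.6 TPM in replicate 1 and 0.69 in replicate 2, so it held most of the ALDH2 level per length in replicate 1 and almost none in replicate 2. Another, of 570 bases with a best match to mouse, went the other way with 9.2 counts in replicate 1 and 43.8 in replicate 2. With the most counted assembled gene alone, the log2 ratio of ALDH2 was 0.60. A best match names the nearest listed protein, not the species of origin.

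ALDH1A1 was split in a similar manner. Its longest assembled gene, of 2088 bases, had 2468 counts in replicate 1 and 2262 in replicate 2, or 52.8 TPM in replicate 1 and 54.5 in replicate 2, while the other 6 together had 101 in replicate 1 and 17.0 in replicate 2. Since 5 of the 7 were shorter than 500 bases, and short assembled genes gain TPM from few reads, these fragments made up 43.7% of the ALDH1A1 level in replicate 1 and 11.6% in replicate 2. The difference in summed TPM of ALDH1A1 therefore lay in its short assembled genes.

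**Figure D4:**
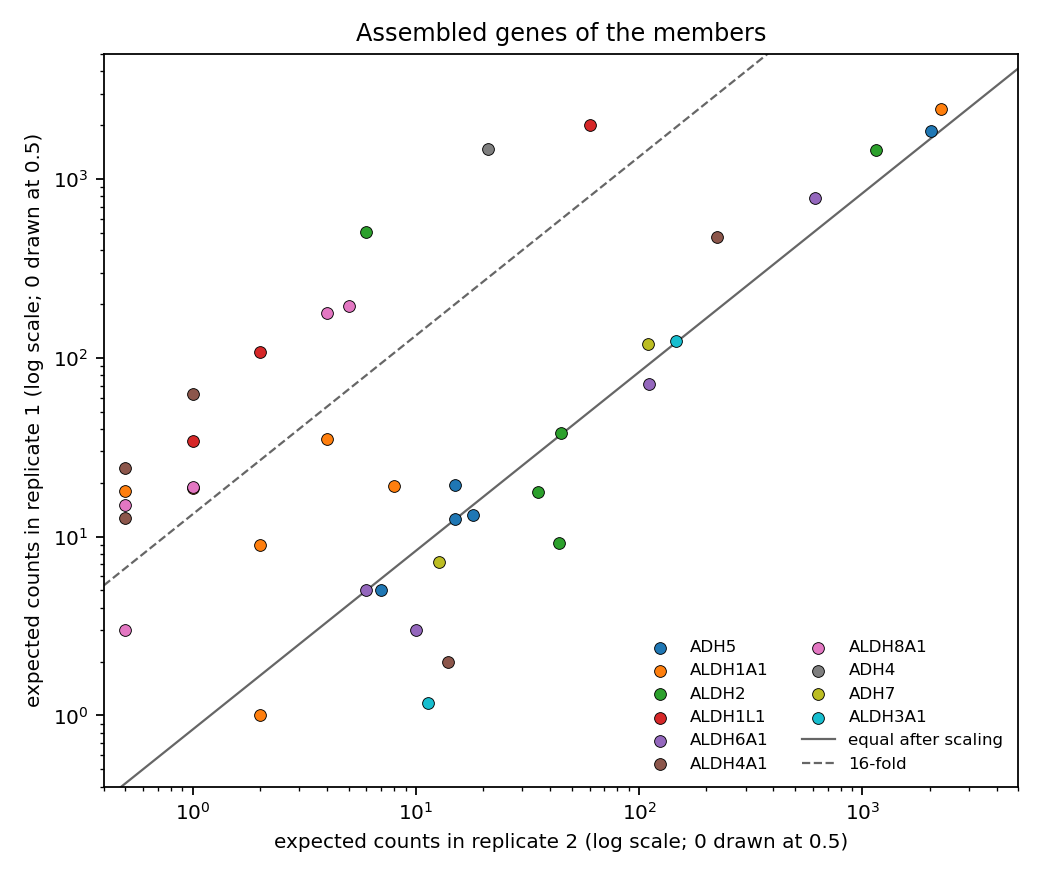
Expected counts of the 39 assembled genes of the 10 names, replicate 1 on the vertical and replicate 2 on the horizontal log axis, with 0 drawn at 0.5; the solid line marks equal levels after scaling and the dashed line 16-fold. ADH5, ADH7 and the longest ALDH1A1, ALDH2 and ALDH6A1 assembled genes lie near the solid line, while the longest of ADH4, ALDH1L1 and ALDH8A1 and the horse-matched one of ALDH2 lie above the dashed line.

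Of the 39 assembled genes, 26 had at least 20 counts summed over both libraries, and 13 of these 26 were over 2-fold higher in replicate 1, beside a background of 10.5% over 28651 assembled genes with as many counts. This filter can be passed through 1 library alone, as by an ALDH4A1 fragment with 24.3 counts in replicate 1 and 0 in replicate 2. Several of the 26 share a name, so they are not separate genes, and these shares only describe the assembled genes. Counts under 3 were set to 3 for this ratio, so a difference against 0 is a lower bound. Over 16-fold higher were 7 of the 26, beside a background of 3.07%. They belonged to ADH4, ALDH1L1 (2), ALDH2, ALDH4A1 and ALDH8A1 (2). The exception in the other direction was the mouse-matched ALDH2 gene, the 1 of 26 that was over 2-fold lower in replicate 1, beside a background of 3.07%. The aldehyde dehydrogenase domain was listed for 30 of the 39 and an alcohol dehydrogenase domain for 7. Best matches came from 8 species, led by human with 13 assembled genes and cattle with 10.

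ALDH1L1 oxidises formyltetrahydrofolate in the cytosol, which yields tetrahydrofolate. It was at 68.2 TPM in replicate 1, against 2.29 TPM in replicate 2, from 2146 counts in replicate 1 and 63 in replicate 2, a log2 ratio of 4.95. All 3 of its assembled genes were low in replicate 2, the longest with 2004 counts in replicate 1 and 60 in replicate 2 and the others with 108 in replicate 1 and 2 in replicate 2, and with 34.5 in replicate 1 and 1 in replicate 2. Without TMM it took 115 CPM (109.8 to 119, Wilson 95% interval) in replicate 1 and 3.35 CPM (2.62 to 4.29) in replicate 2. Its mitochondrial relative ALDH1L2 was low in both libraries, at 4.71 TPM in replicate 1 and 5.29 in replicate 2, with a log2 ratio of 0.16.

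Of the folate and one-carbon list, 11 of 12 genes were found and 10 tested, of which 6 were over 2-fold higher in replicate 1 and 0 over 2-fold lower. The median log2 ratio was 1.35. GNMT, the glycine methyltransferase of liver, was at 266 TPM in replicate 1, against 6.18 TPM in replicate 2, and the mitochondrial serine hydroxymethyltransferase SHMT2 at 47.8 TPM in replicate 1 and 15.1 in replicate 2. MTHFS, which recovers formyl folate, was at 44.2 TPM in replicate 1 and 24.6 in replicate 2, and MTHFD1, which interconverts folate-bound one-carbon units, at 43.9 TPM in replicate 1 and 16.5 in replicate 2. FTCD, which feeds histidine carbon into folate and was named after its value was seen, had 1406 counts in replicate 1 and 30 in replicate 2 and a log2 ratio of 5.07, close to that of ALDH1L1. TYMS, which makes thymidylate, had a log2 ratio of -0.22 and was likewise named afterwards.

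ALDH8A1 oxidises aminomuconate semialdehyde on the kynurenine route of tryptophan breakdown. It was at 40.2 TPM in replicate 1, against 0.85 TPM in replicate 2, from 412 counts in replicate 1 and 10 in replicate 2, a log2 ratio of 4.07. Without TMM it took 21.98 CPM (19.96 to 24.2, Wilson 95% interval) in replicate 1 and 0.533 CPM (0.289 to 0.98) in replicate 2. It was spread over 5 assembled genes, the 2 longest with 196 counts in replicate 1 and 5 in replicate 2 and with 179 in replicate 1 and 4 in replicate 2, and none of the 5 was above 5 counts in replicate 2.

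The kynurenine list had the highest median log2 ratio of the pathway lists, 2.58, with all 8 genes found and tested, 6 of them over 2-fold higher in replicate 1 and 0 over 2-fold lower. HAAO, the dioxygenase that opens hydroxyanthranilate, was at 137 TPM in replicate 1, against 2.86 TPM in replicate 2, and KMO, which hydroxylates kynurenine, at 57.0 TPM in replicate 1 and 1.86 in replicate 2. AFMID, which releases kynurenine, was within 2-fold at 30.5 TPM in replicate 1 and 23.0 in replicate 2. The first step differed by enzyme. IDO1, the dioxygenase of immune and epithelial cells, was at 25.1 TPM in replicate 1 and 25.8 in replicate 2, whereas TDO2, the dioxygenase of liver, named after its value was seen, was at 31.8 TPM in replicate 1 and 0.74 in replicate 2.

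ALDH4A1, the mitochondrial enzyme that turns glutamate semialdehyde from proline into glutamate, was at 44.6 TPM in replicate 1, against 7.80 TPM in replicate 2. Its counts of 577 in replicate 1 and 239 in replicate 2 gave a smaller difference, a log2 ratio of 1.46, against 2.70 when TPM was used. The longest assembled gene, of 3951 bases, had 475 counts in replicate 1 and 224 in replicate 2 but 5.77 TPM in replicate 1 and 2.68 in replicate 2, and 4 fragments under 500 bases made up 87.0% of the ALDH4A1 level in replicate 1 and 65.6% in replicate 2. One fragment of 208 bases had 18.1 TPM from 12.8 counts in replicate 1 and 0 counts in replicate 2.

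Of 7 proline genes, 6 were found and tested and 4 were over 2-fold higher in replicate 1. The median log2 ratio of the list was 1.77. OAT, the mitochondrial ornithine aminotransferase, was at 360 TPM in replicate 1, against 17.9 TPM in replicate 2. PRODH, which catalyses the step before ALDH4A1, was at 46.2 TPM in replicate 1 and 14.3 in replicate 2. HOGA1 of hydroxyproline breakdown was at 7.20 TPM in replicate 1 and 2.28 in replicate 2.

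ALDH6A1, the mitochondrial methylmalonate semialdehyde dehydrogenase of valine and thymine breakdown, was within 2-fold, at 24.5 TPM in replicate 1, against 28.2 TPM in replicate 2. Its counts were 864 in replicate 1 and 742 in replicate 2, and its log2 ratio 0.47. The longest of its 4 assembled genes had 785 counts in replicate 1 and 615 in replicate 2, and another, of 1570 bases, 71 in replicate 1 and 111 in replicate 2. All 12 genes of valine and pyrimidine breakdown were tested and 5 were over 2-fold higher in replicate 1, with a median of 0.71. BCKDHA and BCKDHB, subunits of the branched-chain ketoacid dehydrogenase, had log2 ratios of 0.48 and 1.19, the crotonase ECHS1 0.24 and the aminotransferase BCAT2 0.04.

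**Figure D5:**
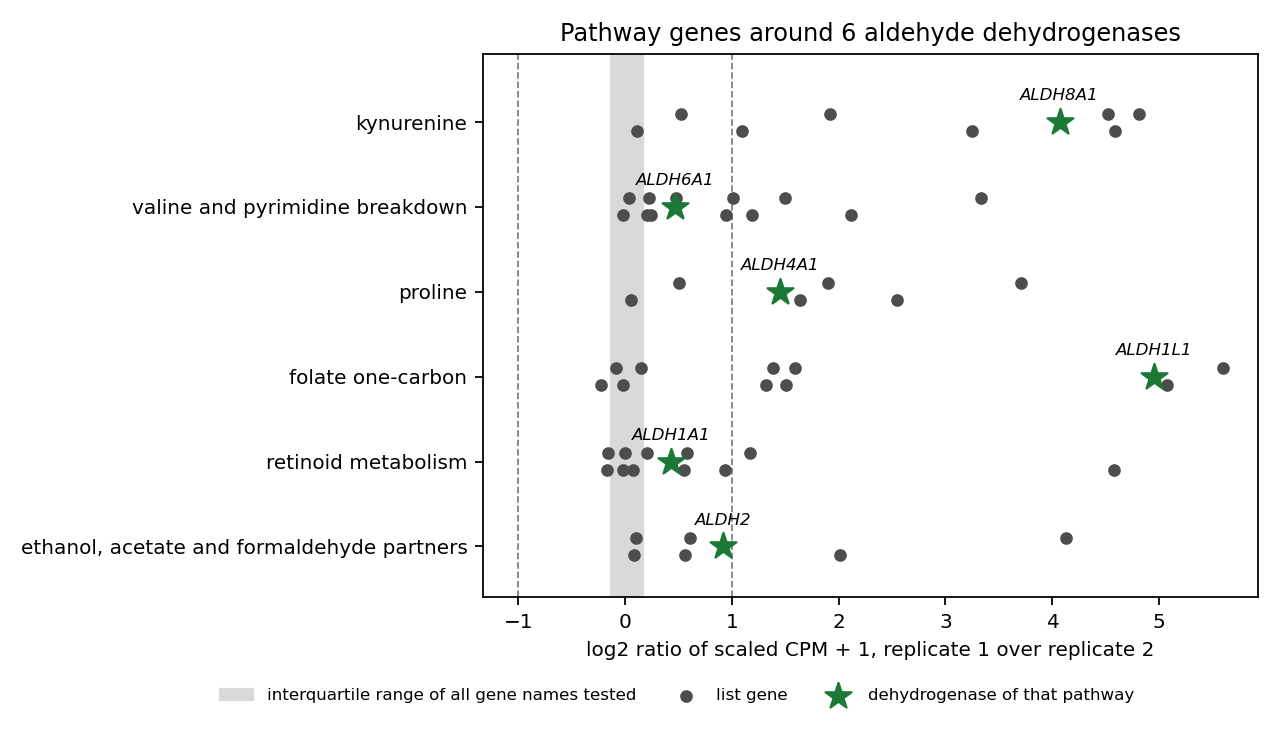
Log2 ratio of scaled CPM + 1, replicate 1 over replicate 2, for the tested genes of 6 pathway lists (grey points, offset vertically for legibility) and the aldehyde dehydrogenase that acts in each (star), with dashed lines at 2-fold and a grey band for the interquartile range of all gene names tested. The kynurenine list has a median of 2.58 and a highest value of 4.82, beside ALDH8A1 at 4.07. The folate list has a median of 1.35 and a highest value of 5.60, beside ALDH1L1 at 4.95. The retinoid list has a median of 0.20 and a highest value of 4.58, beside ALDH1A1 at 0.43.

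Around ALDH2, the list of ethanol, acetate and formaldehyde partners was found whole, and 2 of its 6 genes were over 2-fold higher in replicate 1, with a median of 0.58. CYP2E1, the microsomal ethanol oxidase, had 3887 counts in replicate 1 and 247 in replicate 2. By TPM its difference was much smaller, at 118 in replicate 1 and 58.25 in replicate 2. Catalase (CAT) had 8647 counts in replicate 1 and 2546 in replicate 2, or 403 TPM in replicate 1 and 57.0 in replicate 2. ACSS2, which activates acetate, was at 26.2 TPM in replicate 1 and 25.7 in replicate 2, and ESD, which completes formaldehyde oxidation after ADH5, at 26.5 TPM in replicate 1 and 22.9 in replicate 2 with a log2 ratio of 0.60. Of 18 retinoid genes, 13 were found and 11 tested, and 2 were over 2-fold higher in replicate 1. RBP4, the plasma retinol carrier, was at 267 TPM in replicate 1 and 13.6 in replicate 2. The retinal reductases DHRS4 and DHRS3 had log2 ratios of 0.58 and -0.02.

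The rest of the 2 families included 4 aldehyde dehydrogenases over 2-fold higher in replicate 1 of 11 tested, and 0 of 2 tested alcohol dehydrogenases. The 4 were ALDH5A1 of GABA breakdown (169 counts in replicate 1 and 49 in replicate 2, log2 ratio 1.68), the fatty aldehyde enzyme ALDH3A2 (1710 counts in replicate 1 and 731 in replicate 2, 1.46), ALDH7A1 of lysine breakdown (1395 counts in replicate 1 and 610 in replicate 2, 1.42) and the mitochondrial ALDH1B1 (325 counts in replicate 1 and 171 in replicate 2, 1.10). Within 2-fold were ALDH9A1 of carnitine synthesis (0.39), the retinal enzymes ALDH1A3 (0.32) and ALDH1A2 (0.09), ALDH16A1 (0.11) and ALDH18A1 of proline synthesis (-0.04). ALDH3B1, which acts on lipid-derived aldehydes, had the lowest ratio of the family, -0.27, with 51.9 TPM in replicate 1, against 88.2 TPM in replicate 2. Of the alcohol side, AKR1A1, an aldehyde reductase of another family, was at 66.6 TPM in replicate 1 and 67.8 in replicate 2 (0.39) and ADHFE1 at 13.96 TPM in replicate 1 and 24.9 in replicate 2 (0.52). ALDH1A7 and ALDH3B2 were not found. The 4 assembled genes of ALDH3A2 differed in the size of their ratio. The longest had 1560 counts in replicate 1 and 721 in replicate 2, over 2-fold higher in replicate 1, and another was within 2-fold with 11 in replicate 1 and 9 in replicate 2. The other two were over 16-fold higher in replicate 1, with 87.5 counts in replicate 1 and 1.27 in replicate 2, and with 51.9 in replicate 1 and 0 in replicate 2.

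Over all pathway and other family lists, 29 of 66 tested genes were over 2-fold higher in replicate 1 and 0 over 2-fold lower, beside the backgrounds of 5.16% and 0.0266% above. The median log2 ratio of the 66 was 0.57. All 10 hepatocyte markers were over 2-fold higher in replicate 1. Their log2 ratios ran from 1.51 for transferrin (TF) to 5.62 for APOB, with a median of 4.42, HNF4A at 4.01 and ALB at 5.26. ADH4, ALDH1L1 and ALDH8A1 lay between 4.07 and 5.43. Of the lung epithelium markers, 9 were tested, 0 were over 2-fold apart and their median was -0.22. SCGB1A1 fell under the filter, with 1 count or 0.79 TPM in replicate 1 and 24 counts or 21.4 TPM in replicate 2. The 3 erythroid markers had a median of 0.13. The part of hepatocyte content in the ratios of the dehydrogenases was not tested.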

How the data were processed

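Both tables deposited by the authors list the same 55378 assembled genes, whose identifiers are Trinity clusters. Per the submitters' processing notes, cutadapt 1.9 was used, and the mm10 build is named for replicate 1 only; the quantifier and the use of that build are not given in the sources used here. Expected counts with decimals were deposited in a column named as counts per the file headers. The sums of the other deposited column, 996837 and 996239, are those of TPM values. Its header gives no unit. Names are the deposited best protein matches, upper-cased, and TPM and counts were summed per name. Of the 10 names, 9 are RefSeq symbols of the bat assembly ASM189008v1.

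Counts were rounded to whole numbers for TMM (edgeR 4.0.16, R 4.3.3; 0.9096 and 1.0993) and unrounded for ratios of CPM + 1 among names with a mean of at least 1 CPM, less the median (0.01 on the log2 scale). A difference over 2-fold is a rule of size, not a test. The detection floor was 3 counts. Assembled genes were compared at 20 or more summed counts. On simulated counts the ratio procedure was tested before use. The simulation changed single assembled genes by 4-fold or more with a fixed spread. It therefore checks the calculation only, and does not show how the ratio behaves on name sums or between animals. The study's text implies separate animals. The members and lists were chosen with earlier results of these data known. Named were all members, all other family genes found and up to 4 highest genes of each other list; others are marked as named afterwards, and some list genes are not reported here. Alternatives were a pseudocount of 0.1, other filters, library size scaling, DESeq2 1.42.0 size factors, the median kept, TPM, single assembled genes and each library alone. Python 3.11.15 with pandas 2.3.3 and scipy 1.17.1 was used.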

Additional observations from a re-analysis of the deposited data

How the results depend on the processing

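The 4 genes over 2-fold higher in replicate 1, ADH4, ALDH1L1, ALDH8A1 and ALDH4A1, were the same under all 10 alternatives to the ratio, and ALDH2 joined them with TPM in place of scaled counts. Of 98 single ratios of the dehydrogenases under these alternatives, 12 moved beyond counting error and 1 crossed 2-fold. The median log2 ratio of the dehydrogenases, 0.69, became 1.198 with the filter set at 10 CPM, which leaves 8 of the 10. It became 1.24 with TPM, where the median of all names that was removed was -0.33, and 0.44 with library size scaling and the median kept, where the median of all names was -0.24. Other settings stayed within 0.1, a tolerance chosen for this work. With library size scaling and the median kept, the ratio of ADH5 was -0.13. The pseudocount of 0.1 took ADH4 to 6.26 and ALDH8A1 to 5.36. The summed TPM of 404 ranged from 280.4 to 527 over the single libraries, and its other alternatives stayed within 1 SD. With the highest assembled gene alone, the mean TPM was 9.04 for ALDH4A1, 7.91 for ALDH8A1, 33.0 for ALDH2, 15.4 for ALDH6A1, 23.6 for ALDH1L1, 53.7 for ALDH1A1, 9.16 for ADH7, 86.4 for ADH5 and 4.07 for ALDH3A1, while ADH4 has 1 assembled gene. Genes of the other lists over 2-fold apart numbered 29, and 24 to 30 under the alternatives. Leaving out assembled genes under 500 bases, adding the unnamed class I chains to the summed TPM, and the library size setting with the median kept were added after the data were seen. Ratios cannot be formed without a replicate. No paired analysis was possible because both libraries belong to 1 group. The large differences exceed counting error, and how far animals of this group vary is not known.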

Other observations

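In some assembled genes of the families, the number of reads behind 1 TPM differed between the libraries. This number follows the length of the transcripts counted, and over 19297 assembled genes with at least 20 counts in each library its ratio of replicate 2 over replicate 1 had a median of 0.887. Relative to that median, ALDH5A1 was 3.54 times higher in replicate 2, with 28.4 counts per TPM in replicate 1 and 89.1 in replicate 2, and only 0.145% of these assembled genes were as high. ALDH5A1 has 11 assembled isoforms, and its TPM of 5.96 in replicate 1 and 0.55 in replicate 2 differed more than its counts of 169 in replicate 1 and 49 in replicate 2. ALDH1A3, with 3 isoforms, was 2.06 times higher in replicate 2, at 29.8 counts per TPM in replicate 1 and 54.5 in replicate 2. Of the 26 assembled genes of both families and the unnamed class I chains measured in this way, ALDH5A1 and ALDH1A3 were the highest, and ADH4, at 0.79, was the lowest. These genes were picked for their values, and which isoforms were counted in each library is not given in the tables.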
